A study of Mus musculus with 24 samples.

Results

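The 9 genes described here encode titin and proteins that sit with it at the Z-disc, along the thick filament and at the M-band of the cardiac sarcomere. They are Ttn, Mybpc3, Myom1, Myom2, Cmya5, Ldb3, Tcap, Nebl and Xirp2, and they were taken by gene symbol after the identifiers of the count files had been mapped to symbols, so 9 of 56923 counted genes are covered.

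The libraries came from nuclei of mouse heart ventricles that had been sorted on PCM1, a protein of the cardiomyocyte nuclear envelope. The reads thus stand for RNA of the sorted nuclei, nascent transcripts included, together with any cytoplasmic RNA carried over. All mice carried the floxed allele, Casp2(fl/fl), on both chromosomes. Control mice, XMLC2(-)Casp2(fl/fl), lacked the Cre transgene and are labelled WT. Casp2-depleted mice, XMLC2(+)Casp2(fl/fl), also carried XMLC2-Cre, in which the XMLC2 promoter drives the recombinase in heart muscle cells. Nuclei were collected at postnatal day 1 (P1), P7 and P14 with 4 libraries per group, and each library was a pool of 15 hearts at P1, 6 hearts at P7 and 2 hearts at P14. The p-values below therefore measure the spread between pools. The study left out 3 libraries for low quality, replicate 1 of the P1 controls, replicate 3 of the P14 controls and replicate 1 of the Casp2-depleted group at P14, and the same 21 libraries were kept here. For replicate 1 of the P1 controls the paper took its results as a sign of cytoplasmic contamination.

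The kept libraries held 891817 to 2924097 reads on genes (median 1452114), and a gene with fewer than 3 reads in a library lay below a level of 1.03 to 3.36 CPM (counts scaled to a library total of 1e+06). The part of the uniquely aligned reads that fell on no gene, called the no-gene share below, was 36.8 to 73.9% at P1, 34.3 to 64.3% at P7 and 63.7 to 76.1% at P14. It is given again where it moved with a result. Each of the 8 cardiomyocyte markers Actn2, Ryr2, Tnnt2, Tnni3, Myh6, Pln, Atp2a2 and Corin had reads in every group, and their summed level was 6410 to 79790 CPM per library after scaling by the trimmed mean of M-values (TMM). On the same scale summed fibroblast markers reached 62.0 to 327 CPM, endothelial markers 46.5 to 753 CPM and macrophage markers 30.3 to 237 CPM. Mitochondrially encoded genes, whose RNA is not made in the nucleus, summed to 950 to 5928 CPM at P1, 1641 to 8021 CPM at P7 and 473 to 2384 CPM at P14. Casp2 itself had 9 reads over the P7 control libraries, 8 reads over the P7 Casp2-depleted libraries and 0 in the kept libraries of P1 and P14, so its count gave no check of the genotype.

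The sarcomere is the repeating contractile unit of striated muscle. Actin filaments are anchored at the Z-disc, myosin filaments are linked to each other at the M-band, and titin, the largest known protein, runs from the Z-disc to the M-band and acts as a molecular spring and ruler. After birth cardiomyocytes leave the cell cycle and enlarge, while their sarcomeres become longer, better aligned and enriched in adult protein isoforms. Titin, myosin-binding protein C and the telethonin and ZASP proteins of the Z-disc are well known from inherited cardiomyopathies.

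The stretches of DNA just before the transcription start are shown for 5 of the 9 genes, because sarcomere genes are textbook targets of the muscle transcription factors MEF2 and SRF. Each window shown holds a match to the motif of one of these factors. Mybpc3, Myom1 and Ldb3 are among the 6 of the 9 genes called lower between P7 and P14, and Ttn and Xirp2 are not. The sequences are 250-base windows from RefSeq on build GRCm38.p6, written from 5′ to 3′ on the strand of the gene and ending at the last base before the start. Capitals mark a match to the 10-letter MEF2 consensus in Ttn, Mybpc3 and Xirp2 and to the 10-letter CArG box, the binding motif of SRF, in Myom1 and Ldb3.
Ttn, chr2:76982548-76982797, minus strand: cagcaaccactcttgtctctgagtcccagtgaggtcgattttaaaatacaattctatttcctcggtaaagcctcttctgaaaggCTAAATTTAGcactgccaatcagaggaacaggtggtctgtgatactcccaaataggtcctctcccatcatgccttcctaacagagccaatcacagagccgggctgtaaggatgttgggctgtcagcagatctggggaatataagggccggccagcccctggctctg
Mybpc3, chr2:91117894-91118143, plus strand: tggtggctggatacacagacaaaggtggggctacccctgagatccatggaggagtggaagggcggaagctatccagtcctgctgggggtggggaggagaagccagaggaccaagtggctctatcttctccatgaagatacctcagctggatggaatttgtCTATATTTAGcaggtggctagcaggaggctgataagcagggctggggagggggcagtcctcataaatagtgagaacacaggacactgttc
Xirp2, chr2:67445752-67446001, plus strand: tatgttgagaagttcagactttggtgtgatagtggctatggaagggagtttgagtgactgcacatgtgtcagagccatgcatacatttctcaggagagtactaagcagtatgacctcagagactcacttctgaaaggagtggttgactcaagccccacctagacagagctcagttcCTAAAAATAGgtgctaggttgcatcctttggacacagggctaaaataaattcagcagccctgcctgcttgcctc
Myom1, chr17:71019307-71019556, plus strand: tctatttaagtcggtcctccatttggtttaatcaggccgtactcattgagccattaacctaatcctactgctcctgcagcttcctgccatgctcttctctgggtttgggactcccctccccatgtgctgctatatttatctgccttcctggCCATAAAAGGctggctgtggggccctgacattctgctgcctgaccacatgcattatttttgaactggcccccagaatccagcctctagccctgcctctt
Ldb3, chr14:34588682-34588931, minus strand: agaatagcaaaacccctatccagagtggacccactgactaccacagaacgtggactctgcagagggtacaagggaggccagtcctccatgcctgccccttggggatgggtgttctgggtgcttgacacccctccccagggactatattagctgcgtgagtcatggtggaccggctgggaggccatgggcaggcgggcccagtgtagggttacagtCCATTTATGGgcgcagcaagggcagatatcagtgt

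RefSeq windows were matched for 7 of the 9 genes, 11 windows in all, with no entry used for Myom2 and Tcap. Both strands were searched for the MEF2 and CArG consensus sequences and for 3 shorter motifs, all chosen after the windows had been read. The MEF2 consensus lay 166 to 157 bases before the start in Ttn, 90 to 81 in Mybpc3 and 74 to 65 in Xirp2. It was found in 167 of 32851 windows of this length (0.508%) and in 160 of the 27025 genes with such a window (0.592%). The CArG box lay 99 to 90 bases before the start of Myom1 and 35 to 26 before that of Ldb3, and it was also present in 1 of the 4 windows of Nebl. Over all windows it was found in 482 (1.47%), and over all genes in 439 (1.62%). None of the 7 genes had the TATA box TATAAA (14.3% of all genes). Nebl had the TEAD motif CATTCC (14.4% of all genes). Nebl, Myom1 and Cmya5 had the GATA motif AGATAA (11.4% of all genes). The Cmya5 window held neither the MEF2 consensus nor the CArG box. No binding was measured in these samples, and a match is only a match of letters.

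Titin gave most of the reads. The 9 genes took 0.383 to 4.61% of the reads on genes in a library, and Ttn alone gave 53.6 to 84.8% of them. Over the 21 libraries 592182 reads fell on Ttn, 118255 on Mybpc3, 48619 on Myom1, 30092 on Ldb3, 14237 on Nebl, 6431 on Xirp2, 4558 on Myom2 and 3680 on Cmya5. Tcap had fewer reads than any of these. The libraries were made from the 3′ ends of transcripts, so reads need not scale with gene length, and the values per length are given without ranking the genes by them. The mean level in CPM per kilobase of gene span was 64.9 for Ttn, 194 for Mybpc3, 11.5 for Myom1, 1.71 for Myom2, 1.03 for Cmya5, 13.3 for Ldb3, 21.8 for Tcap, 1.08 for Nebl and 0.572 for Xirp2. All levels below are in TMM-scaled CPM and are given in the order of the replicate numbers.

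Ttn (chromosome 2, 76534136 to 76812891, minus strand, GRCm39) encodes titin. At P1 its level was 1810, 10420 and 13566 CPM in the control libraries and 10453, 1928, 4485 and 35938 CPM in the Casp2-depleted ones. At P7 it was 23615, 60627, 44027 and 31774 CPM in controls and 25949, 25592, 31549 and 15025 CPM in Casp2-depleted nuclei. At P14 it was 15945, 2977 and 6471 CPM in controls and 9619, 4191 and 3830 CPM in Casp2-depleted nuclei. Each P7 control library was above every P1 and P14 control library. In Casp2-depleted nuclei the P7 libraries overlapped with P1, where replicate 4 was higher than any P7 library of that genotype, and the P14 libraries were below P7 throughout. The group means were 40010 ± 16102 CPM (SD, n = 4) in P7 controls and 24529 ± 6898 CPM (SD, n = 4) in P7 Casp2-depleted nuclei, against 5880 ± 3243 to 13201 ± 15573 CPM in the other 4 groups.

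**Figure D1:**
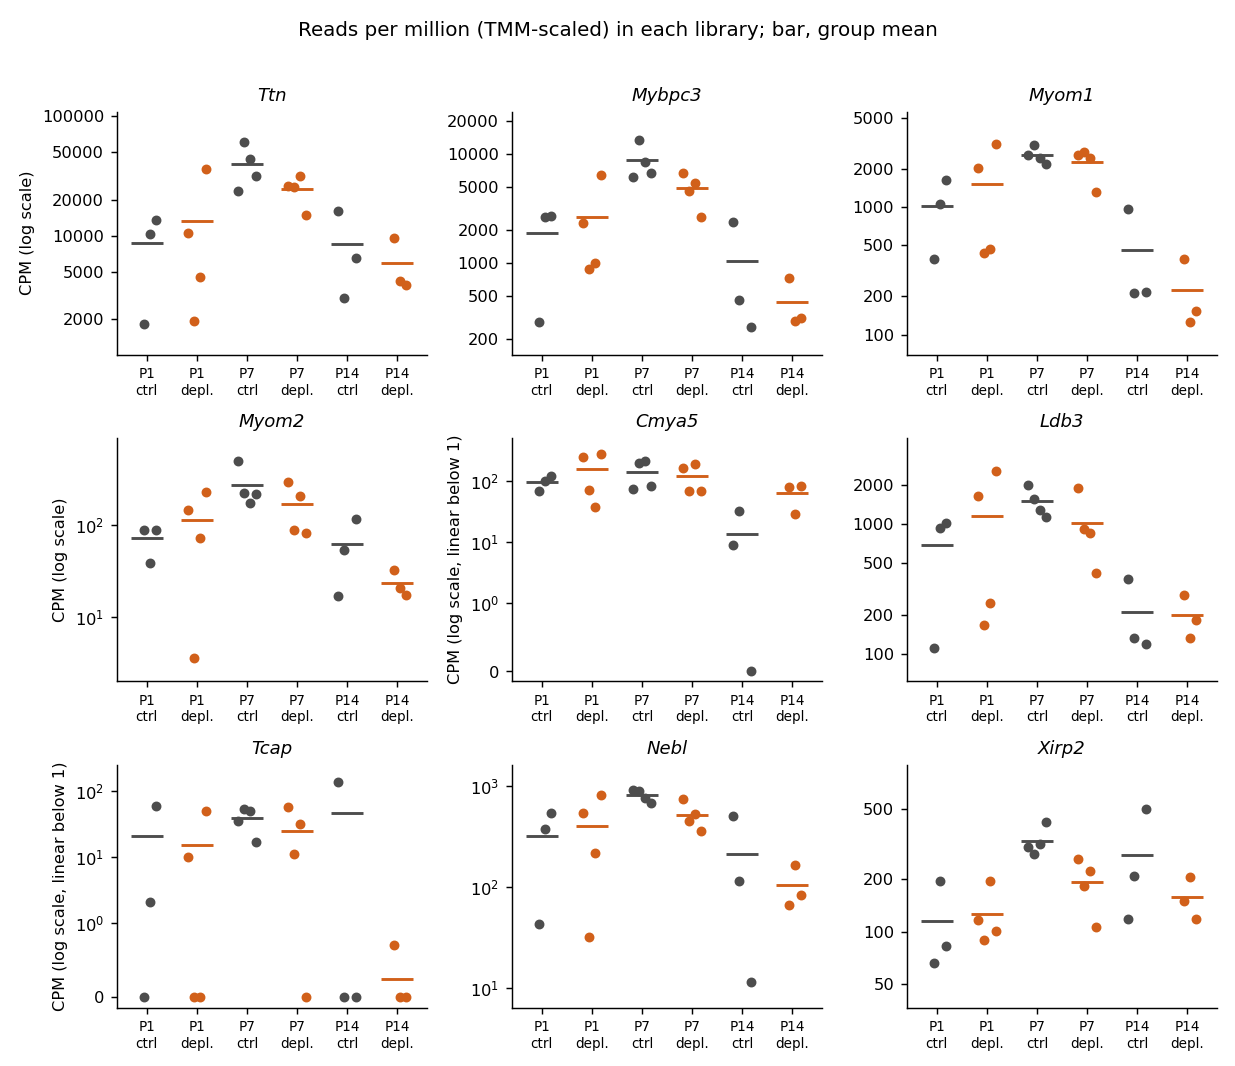
Level of each of the 9 genes in the 21 libraries, in TMM-scaled CPM on a log axis (linear below 1 for Cmya5 and Tcap, which have libraries at 0), by day and genotype (ctrl, control; depl., Casp2-depleted). Points are libraries and horizontal bars are group means; for 7 genes the P7 control mean is the highest and for 7 the P14 Casp2-depleted mean is the lowest, but neighbouring groups overlap.

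Mybpc3 (chromosome 2, 90948489 to 90966861, plus strand) encodes cardiac myosin-binding protein C, which lies along the thick filament and sets how myosin heads engage. It was read at 285, 2659 and 2677 CPM in P1 controls and at 2327, 870, 1002 and 6440 CPM in P1 Casp2-depleted nuclei. At P7 the control libraries reached 6106, 13543, 8502 and 6633 CPM and the Casp2-depleted libraries 6733, 4602, 5419 and 2620 CPM. At P14 the values were 2368, 459 and 257 CPM in controls and 721, 293 and 309 CPM in Casp2-depleted nuclei. The P14 libraries of both genotypes were all lower than every P7 library. The P7 control libraries were also above the P1 controls, whereas the Casp2-depleted P1 and P7 libraries overlapped.

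Myom1 (chromosome 17, 71309628 to 71434802, plus strand) encodes myomesin-1, which crosslinks myosin filaments at the M-band. Its level at P1 was 394, 1060 and 1618 CPM in controls and 2020, 436, 467 and 3093 CPM in Casp2-depleted nuclei. At P7 it was 2560, 3032, 2425 and 2187 CPM in controls and 2567, 2692, 2417 and 1303 CPM in Casp2-depleted nuclei, so 7 of the 8 libraries of that day lay between 2187 and 3032 CPM. At P14 it was 966, 212 and 216 CPM in controls and 392, 125 and 153 CPM in Casp2-depleted nuclei, below every P7 library.

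Myom2 (chromosome 8, 15107272 to 15183541, plus strand) encodes myomesin-2, the M-band protein that adult fast and cardiac muscle uses beside myomesin-1. It was much lower than Myom1 in the counts, at 87.9, 38.7 and 89.0 CPM in P1 controls and 148, 3.51, 72.5 and 232 CPM in P1 Casp2-depleted nuclei. At P7 it was 502, 225, 176 and 219 CPM in controls and 301, 89.6, 213 and 82.3 CPM in Casp2-depleted nuclei. At P14 it was 17.0, 53.3 and 118 CPM in controls and 32.4, 20.8 and 17.0 CPM in Casp2-depleted nuclei. In both genotypes the P14 libraries were lower than the P7 libraries of the same genotype, and P7 control replicate 1 stood apart above the other 3 of its group. Cmya5 (chromosome 13, 93177210 to 93281327, minus strand) encodes myospryn, a large protein that binds desmin and titin near the Z-disc and the M-band. Its P1 libraries gave 69.2, 101 and 123 CPM in controls and 255, 71.6, 37.9 and 284 CPM in Casp2-depleted nuclei, and its P7 libraries 74.8, 199, 215 and 84.0 CPM and 167, 69.0, 193 and 70.3 CPM. At P14 the control libraries were at 9.19, 32.3 and 0 CPM, below every other control library, and the Casp2-depleted libraries at 81.8, 29.6 and 83.9 CPM, of which replicate 3 alone was below the P7 range.

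Among the Z-disc genes, Ldb3 (chromosome 14, 34248056 to 34312351, minus strand) encodes the PDZ-LIM protein also called ZASP or Cypher, which binds alpha-actinin. It was read at 111, 935 and 1019 CPM in P1 controls and 1644, 168, 246 and 2549 CPM in P1 Casp2-depleted nuclei. At P7 the values were 1998, 1567, 1297 and 1135 CPM in controls and 1898, 914, 861 and 423 CPM in Casp2-depleted nuclei. At P14 they were 378, 134 and 119 CPM in controls and 284, 133 and 183 CPM in Casp2-depleted nuclei. As for Mybpc3 and Myom1, each P14 library was lower than each P7 library.

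Tcap (chromosome 11, 98274637 to 98275779, plus strand) encodes telethonin, which caps the Z-disc end of titin. It was the member with the fewest reads and was at 0 in 8 of 21 libraries. The control libraries gave 0, 2.11 and 60.4 CPM at P1, 36.1, 54.7, 50.4 and 17.2 CPM at P7 and 141, 0 and 0 CPM at P14. The Casp2-depleted libraries gave 10.1, 0, 0 and 51.0 CPM at P1, 57.5, 11.1, 31.6 and 0 CPM at P7 and 0.705, 0 and 0 CPM at P14. The groups overlapped, and P14 control replicate 1 had both the highest level and all 199 reads of its group. In P14 Casp2-depleted nuclei a single Tcap read was counted, against 183 at P7 in the same genotype, a ratio of 132 with an exact counting interval of 23.5 to 5258. That interval covers counting error and not the spread between pools.

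Nebl (chromosome 2, 17347467 to 17736275, minus strand) encodes nebulette, the cardiac Z-disc relative of nebulin. Its level was 42.7, 373 and 546 CPM in P1 controls and 541, 31.6, 218 and 822 CPM in P1 Casp2-depleted nuclei. At P7 it was 906, 902, 766 and 687 CPM in controls and 736, 450, 530 and 355 CPM in Casp2-depleted nuclei, and at P14 it was 510, 115 and 11.4 CPM and 65.6, 164 and 83.9 CPM. Within each genotype the P14 libraries were below those of P7, and P14 control replicate 1 was within the range of the P7 Casp2-depleted libraries. Xirp2 (chromosome 2, 67004178 to 67356962, plus strand) encodes an actin-binding protein with Xin repeats that lies at intercalated discs and Z-discs. It gave 66.2, 196 and 82.6 CPM in P1 controls and 116, 89.8, 195 and 101 CPM in P1 Casp2-depleted nuclei, and at P7 304, 279, 315 and 421 CPM and 258, 182, 223 and 106 CPM. At P14 it was 119, 208 and 499 CPM in controls and 149, 205 and 119 CPM in Casp2-depleted nuclei. As for Tcap, its P14 libraries overlapped with P7 in both genotypes. The strand used in counting is not given in the sources used here, and 3 genes on the opposite strand within Xirp2 had 927, 144 and 86 reads of their own in the 21 libraries, against 20 for one within Ttn and 8 for one within Myom1.

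P14 control replicate 1 was the highest P14 library for Ttn, Mybpc3, Myom1, Ldb3, Tcap and Nebl, and it had the lowest no-gene share of that day, 63.7% against 72.2 to 76.1%. At P1, Casp2-depleted replicate 4 was the highest library for 7 of the 9 genes and had the lowest no-gene share, 36.8% against 49.8 to 73.9%. The part of this share in the levels was not tested beyond the fit with it as a term that is given below. In every gene each neighbouring pair of groups in the order of means overlapped. The P7 control mean was the highest for 7 genes, the exceptions being Tcap (P14 control) and Cmya5 (P1 Casp2-depleted). For 7 genes the P14 Casp2-depleted mean was the lowest, while the lowest mean was that of P14 controls for Cmya5 and P1 controls for Xirp2. Without TMM scaling the order of groups differed for Ttn, Myom2, Ldb3, Tcap and Xirp2.

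The first comparison asked how the genes changed from P1 to P7. In controls the fitted level was higher at P7 for each of the 9 genes, with a median log2 fold change of 1.35 against 0.21 over all genes. Ttn was higher by 2.22 (standard error 0.92), Mybpc3 by 2.21 (0.93), Myom2 by 1.96 (0.76), Xirp2 by 1.52 (0.64), Nebl by 1.35 (0.81), Myom1 by 1.32 (0.42) and Ldb3 by 1.12 (0.65) on the log2 scale. These 7 genes are also those whose control libraries did not overlap between the days, a pattern shown by 6.89% of all 20368 genes tested. None of the 9 passed the test, a Benjamini-Hochberg adjusted p below 0.05 in edgeR's quasi-likelihood test with a log2 fold change beyond 1, which called 0.00982% of all genes higher. For the 7 genes the adjusted p was 0.626 to 0.648, and 5 of the 9 had an unadjusted p below 0.05, as 4.52% of all genes did in this direction. DESeq2 called 0 of the 9 and 88 of the 20368 genes, and limma-voom 0 of the 9 and 49. EdgeR without its robust setting, which gives each gene the spread of the trend, called 2, Ttn and Mybpc3, and 0.0491% of all genes.

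In Casp2-depleted nuclei the same step was smaller in the fitted values. None of the 9 had separated groups, with 4 libraries against 4 where the controls had 4 against 3. The share of all genes separated in this step is not reported here, so the counts of the genotypes are not compared. The median log2 fold change of the 9 genes was 0.59 against 0.07 over all genes, 7 of the 9 were fitted higher, and 0 had an unadjusted p below 0.05, which 7.4% of all genes had. Ttn was higher by 0.89 (standard error 0.80) and Mybpc3 by 0.86 (0.80), both at an adjusted p of 1.0. The edgeR test called 0 of the 9, where 0.0196% of all genes were called higher. DESeq2 called 0 of the 9 and 46 of 20368 genes, and limma-voom 0 of the 9 and 8. With both genotypes together the median was 0.95 against 0.22. DESeq2 called 0 of the 9 and 101 of 20368 genes, and limma-voom 0 of the 9 and 29. EdgeR called 0 of the 9, where 0.0933% of all genes were called higher. All 9 were fitted higher and 5 (Ttn, Myom1, Myom2, Mybpc3 and Xirp2) had an unadjusted p below 0.05, as 7.53% of all genes did in this direction. The estimate was 1.56 (standard error 0.60, adjusted p = 0.41) for Ttn, 1.54 (0.61, 0.42) for Mybpc3, 1.28 (0.50, 0.35) for Myom2, 1.07 (0.43, 0.35) for Xirp2 and 0.95 (0.28, 0.22) for Myom1. Without the robust setting Ttn and Mybpc3 were called here too, with 0.133% of all genes. For Nebl it was 0.85 (0.54), for Tcap 0.82 (1.21), for Ldb3 0.48 (0.43) and for Cmya5 0.09 (0.53).

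From P7 to P14 most of the genes fell. With both genotypes together 6 of the 9 passed the test and all 6 were lower at P14, where 8.66% of all genes were called lower. The largest estimate was that of Mybpc3, which fell by 3.27 on the log2 scale (standard error 0.69, adjusted p = 0.00669). Of the M-band genes, Myom1 fell by 2.89 (standard error 0.32, adjusted p = 1.391e-15) and Myom2 by 2.51 (0.55, 0.0002597), and Cmya5 fell by 2.15 (0.60, 0.00782). Of the Z-disc genes, Ldb3 fell by 2.59 (0.49, 0.0002119) and Nebl by 2.12 (0.59, 0.0193). Ttn missed the threshold at -2.15 (0.65, 0.0513), and so did Tcap at -3.05 (1.42, 0.135) and Xirp2 at -0.27 (0.44, 0.781). The median over the 9 genes was -2.51 and that over all genes was -0.87, so that, relative to the median gene, the fall was smaller than these values by that amount. Mybpc3, Myom1 and Ldb3 had no P14 library as high as any P7 library, as 3.81% of all genes did.

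Other measures moved with this fall. Detected genes per library numbered 14006 to 17770 at P7 and 7628 to 13651 at P14. Reads on genes ran from 1452114 to 2924097 at P7 and from 891817 to 1278961 at P14. The TMM factors were 0.57 to 0.98 at P7 and 1.11 to 1.57 at P14. None of these 3 measures overlapped between the days. The no-gene share was 63.7 to 76.1% at P14 and 34.3 to 64.3% at P7, and with that share as a term in the fit Myom1 alone of the 9 passed the test, while the genes called over all fell from 1817 to 225, or 1.1% of those tested. Of the 8 cardiomyocyte markers, 7 were called lower at P14 as well; their summed TMM-scaled level was 30234 to 79790 CPM at P7 and 6410 to 24884 CPM at P14, and none of the 8 was at 0. The summed level of the 8 fibroblast markers was 124 to 261 CPM at P7 and 128 to 311 CPM at P14 on the same scale, and without TMM scaling it was 78.9 to 213 CPM and 174 to 379 CPM. Of these markers 6 were fitted lower at P14 and 0 were called, with a median log2 fold change of -0.70 against -0.87 over all genes. Whether fewer cardiomyocyte nuclei or less RNA of these genes per nucleus lay behind a lower level cannot be told apart in pooled nuclei, and the part of these measures in the result was not tested further. Without P14 control replicate 1, 8 of the 9 genes passed, Ttn and Tcap in addition, as did 8.0% of all genes. Limma-voom called 5 of the 9 (Nebl, Myom1, Myom2, Tcap and Cmya5) and 15.9% of all genes, and DESeq2 called 7 (the 6 and Ttn) and 11.7% of all genes.

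**Figure D2:**
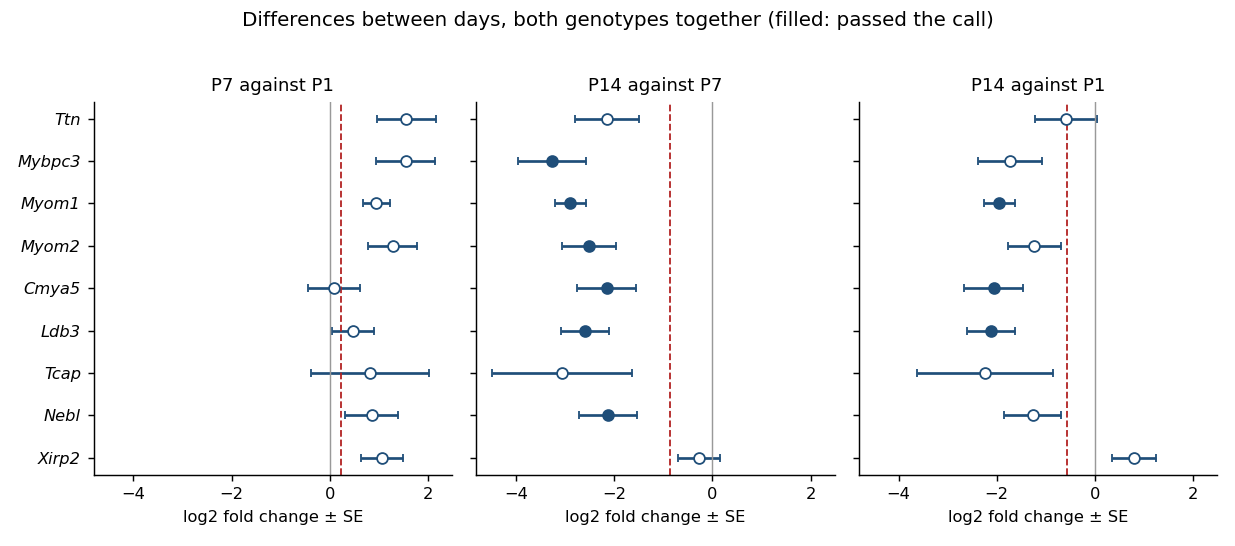
Log2 fold change of each of the 9 genes between days with both genotypes together, from edgeR's quasi-likelihood fit, with bars of 1 standard error, filled points for genes that passed the test and a dashed red line at the median over all genes tested. From P1 to P7 every estimate but that of Cmya5 lies above that line without passing the test, and from P7 to P14 every estimate but that of Xirp2 lies below it.

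Within each genotype fewer genes passed, and different ones joined Myom1 and Ldb3. In controls 3 of the 9 were called lower at P14 than at P7, where 1.87% of all genes were called lower. Myom1 fell by 2.46 (standard error 0.44, adjusted p = 2.574e-05), Ldb3 by 2.83 (0.70, 0.0171) and Cmya5 by 3.37 (0.90, 0.0159). Control libraries of 7 of the 9 genes were lower at P14 without overlap, against 13.5% of all genes. In Casp2-depleted nuclei 3 of the 9 were called lower, where 2.82% of all genes were. Myom1 fell by 3.33 (0.46, 1.571e-09), Myom2 by 2.87 (0.79, 0.0153) and Ldb3 by 2.35 (0.68, 0.0459), and 6 of the 9 genes had P14 libraries below all P7 libraries, against 10.9% of all genes. Ldb3 lost its call in Casp2-depleted nuclei when the replicate number entered the fit as a block. In the controls the call count fell to 1 without P7 replicate 2, and in the Casp2-depleted nuclei it was 1 without P7 replicate 1, without P14 replicate 3 or without P14 replicate 4, and 5 without P14 control replicate 1 or 4. Limma-voom called 0 of the 9 in either genotype, where it called 1150 of 20368 genes in controls and 830 in Casp2-depleted nuclei. With the no-gene share as a term 0 of the 9 were called in controls, where 0.187% of all genes were, and 1 (Myom1) in Casp2-depleted nuclei, where 0.722% were, and the estimate for Ldb3 in Casp2-depleted nuclei was then 0.036.

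Over the whole interval from P1 to P14, 3 of the 9 were called lower with both genotypes together, where 4.0% of all genes were called lower. Ldb3 fell by 2.12 (standard error 0.49, adjusted p = 0.00544), Cmya5 by 2.07 (0.61, 0.0246) and Myom1 by 1.95 (0.31, 3.304e-07). Ttn at -0.59 (0.63, 0.771) and Xirp2 at 0.79 (0.45, 0.322) did not pass the test. The estimate for Ttn was -0.02 (0.91) in controls and -1.17 (0.88) in Casp2-depleted nuclei. The median was -1.73 against -0.57 over all genes. In Casp2-depleted nuclei Myom1 fell by 2.75 (0.45, 1.075e-06) and Ldb3 by 2.52 (0.69, 0.0399), 2 of the 9 where 1.92% of all genes were called lower, and Ldb3 was not called with the replicate block. With the no-gene share as a term 0 of the 9 were called in Casp2-depleted nuclei, where 95 of 20368 genes were. In controls 0 of the 9 were called by edgeR, where 0.314% of all genes were called lower, and 3 of the 9 had an unadjusted p below 0.05, as 11.5% of all genes did. With both genotypes together 6 of the 9 were called without P14 control replicate 1, with 4.4% of all genes. With the no-gene share as a term 0 of the 9 and 235 of 20368 genes were called.

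Titin was then taken as the yardstick, since a ratio of reads within a library does not depend on its scaling. The 9 genes together took 0.383 to 3.63% of the reads on genes at P1 (median 1.45%), 1.96 to 4.61% at P7 (median 3.27%) and 0.544 to 2.26% at P14 (median 0.946%). Ttn gave 53.6 to 72.6% of those reads at P1 (median 66.0%), 65.4 to 76.2% at P7 (median 74.6%) and 71.1 to 84.8% at P14 (median 80.7%). The days overlapped, with the medians in the order P1, P7, P14.

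**Figure D3:**
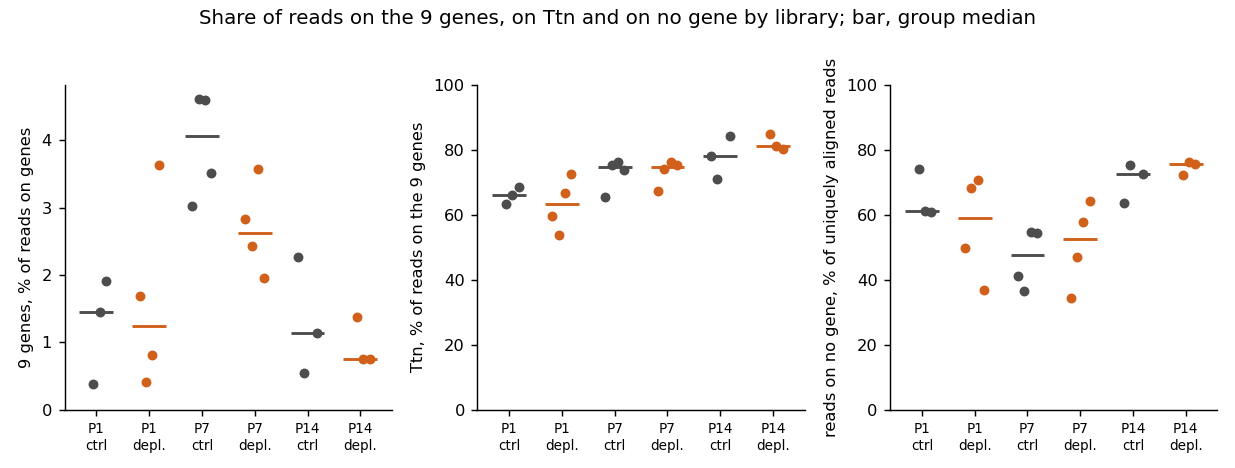
Share of the reads on genes that fell on the 9 genes together (left), share of these that fell on Ttn (middle) and share of uniquely aligned reads that fell on no gene (right), in percent, in each of the 21 libraries by day and genotype, with bars at group medians. The first share has its highest median at P7, but the days overlap, at 0.383 to 3.63% at P1, 1.96 to 4.61% at P7 and 0.544 to 2.26% at P14. The second runs from 53.6% in a P1 library to 84.8% in a P14 library. The third is 34.3 to 64.3% at P7 and 63.7 to 76.1% at P14.

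Mybpc3 reads were 15.8 to 45.1% of Ttn reads at P1 (median 22.3%), 17.2 to 25.9% at P7 (median 20.1%) and 3.98 to 15.4% at P14 (median 7.78%). The P14 libraries did not overlap with those of either earlier day. Myom1 reads were 8.61 to 22.6% of Ttn reads at P1 (median 11.9%), 5.0 to 10.8% at P7 (median 8.17%) and 2.99 to 7.13% at P14 (median 4.03%), and Ldb3 reads 5.50 to 15.7% (median 7.51%), 2.58 to 8.46% (median 3.26%) and 1.84 to 4.79% (median 3.06%). For both genes the P1 and P14 libraries were separated and P7 overlapped with each. Cmya5 reads were 0.791 to 3.82% of Ttn reads at P1 (median 0.967%) and 0.264 to 0.644% at P7 (median 0.398%), without overlap, and 0 to 2.19% at P14 (median 0.779%). Xirp2 reads were 0.281 to 4.66% at P1 (median 1.88%), 0.460 to 1.33% at P7 (median 0.714%) and 0.745 to 7.71% at P14 (median 3.99%), and its days overlapped. From P7 to P14 the medians of Xirp2, Cmya5 and Nebl rose, while those of Mybpc3, Myom1, Ldb3, Myom2 and Tcap fell. Nebl medians were 3.58, 1.96 and 2.70%, and Myom2 medians 0.656, 0.611 and 0.471%, also with overlap.

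Of the 8 genes set against Ttn, 1 (Cmya5) was lower at P7 than at P1 without overlap, against 0.28% of all genes set against Ttn in the same way. From P7 to P14 it was 1 (Mybpc3), against 0.972%, and from P1 to P14 it was 3 (Myom1, Mybpc3 and Ldb3), against 0.403%. None of the 8 was higher without overlap in any of these steps. These counts are a description with both genotypes together, chosen after the values had been seen, and no test was run on them.

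**Figure D4:**
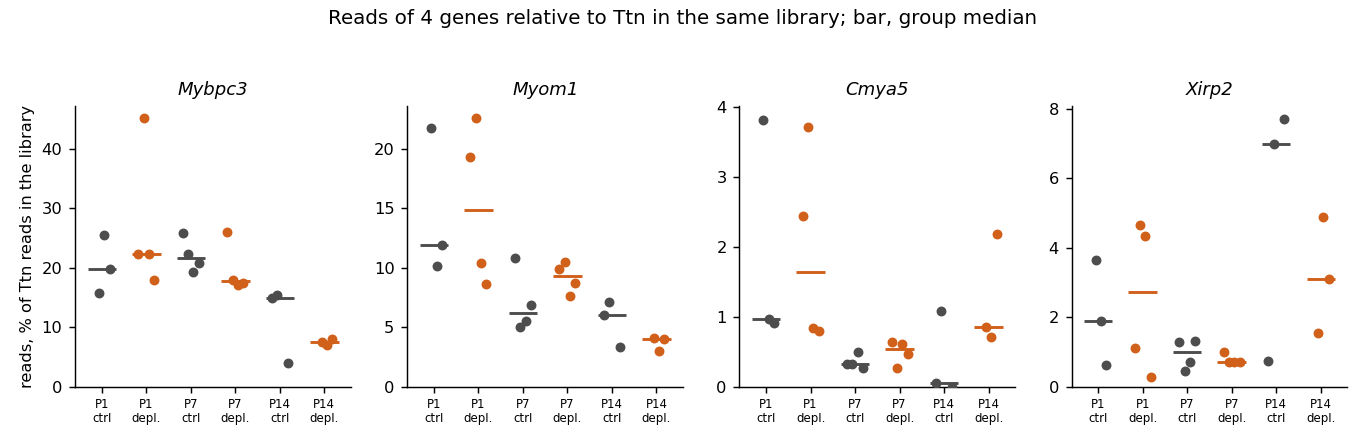
Reads on Mybpc3, Myom1, Cmya5 and Xirp2 as a percentage of the Ttn reads of the same library, by day and genotype, with a point for each library and a bar at the group median. For Mybpc3 the 6 P14 libraries, at 3.98 to 15.4%, lie below all P1 and P7 libraries.

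The 2 myomesins were compared with each other, since the balance between them is a feature of M-band composition. The mean log2 ratio of Myom2 to Myom1 reads (with 0.5 added to each count) was -3.70 ± 1.36 (SD, n = 3) in P1 controls, -3.30 ± 0.67 (n = 4) in P7 controls and -2.89 ± 2.59 (n = 3) in P14 controls. In Casp2-depleted nuclei it was -4.25 ± 1.79 (n = 4), -3.87 ± 0.78 (n = 4) and -3.10 ± 0.50 (n = 3). The steps in controls were 0.40 from P1 to P7 (p = 0.629) and 0.41 from P7 to P14 (p = 0.8), and those in Casp2-depleted nuclei were 0.38 (p = 0.8) and 0.77 (p = 0.286), in two-sided exact permutation tests. Adjusted over the 4 tests every p was 0.8, and the smallest p the design allows is 0.0571 for 4 libraries against 3 and 0.0286 for 4 against 4. The P14 control libraries had Myom2 at 1.76, 25.1 and 54.7% of Myom1 in read counts, a spread wider than the range of 0.805 to 22.3% in all other libraries. The step from P7 to P14 in controls was -0.60 without P14 control replicate 4, and -0.04 without replicate 2.

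The genotypes were compared within each day. At P1 the fitted levels of 8 of the 9 genes were higher in Casp2-depleted nuclei, with a median log2 fold change of 0.55 against 0.08 over all genes. The groups overlapped for each of the 9, and the share of all genes that overlapped is not reported here. EdgeR called 0 of the 9 and 0.0% of all genes, and 0 of the 9 and 7.34% of all genes had an unadjusted p below 0.05. DESeq2 called 0 of the 9 and 105 of 20368 genes, and limma-voom 0 of the 9 and 49. At P7 the fitted level of each of the 9 genes was lower in Casp2-depleted nuclei, with a median of -0.66 against -0.03. Ttn was at -0.71 (standard error 0.79), Mybpc3 at -0.84 (0.80) and Xirp2 at -0.78 (0.57), each with an adjusted p of 1.0 in edgeR's quasi-likelihood test. Again 0 of the 9 and 0.0% of all genes were called, and 0 of the 9 and 4.22% of all genes had an unadjusted p below 0.05. DESeq2 called 0 of the 9 and 25 of 20368 genes, and limma-voom 0 of the 9 and 0 of all genes. Xirp2 was the one gene whose P7 libraries did not overlap, at 279 to 421 CPM in controls and 106 to 258 CPM in Casp2-depleted nuclei, a pattern that 0.943% of all genes showed in this direction.

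At P14 the median was -1.02 against 0.0 over all genes, and 8 of the 9 genes were fitted lower in Casp2-depleted nuclei, the exception being Cmya5. EdgeR called 0 of the 9 where 0.167% of all genes were called. Limma-voom called 0 of the 9 and 116 of 20368 genes, and DESeq2 called Tcap and 3.25% of all genes. The Tcap call rested on P14 control replicate 1, which held all 199 reads of its group, while control replicates 2 and 4 were at 0. An unadjusted p below 0.05 was reached by 3 of the 9, Myom1, Tcap and Cmya5, and by 12.8% of all genes. Myom1 was at -1.06 (standard error 0.44, adjusted p = 0.379), Mybpc3 at -1.22 (0.93, 0.673) and Cmya5 at 2.23 (0.89, 0.373). Without P14 control replicate 1 the estimate was 0.06 for Myom1 and 0.30 for Mybpc3, so the direction for these genes rested on that library. With the days averaged 0 of the 9 were called by edgeR, where 0.0147% of all genes were, and 2 of the 9 had an unadjusted p below 0.05, as 8.4% of all genes did. DESeq2 called 0 of the 9 and 214 of 20368 genes, and limma-voom 0 of the 9 and 0 of all genes.

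**Figure D5:**
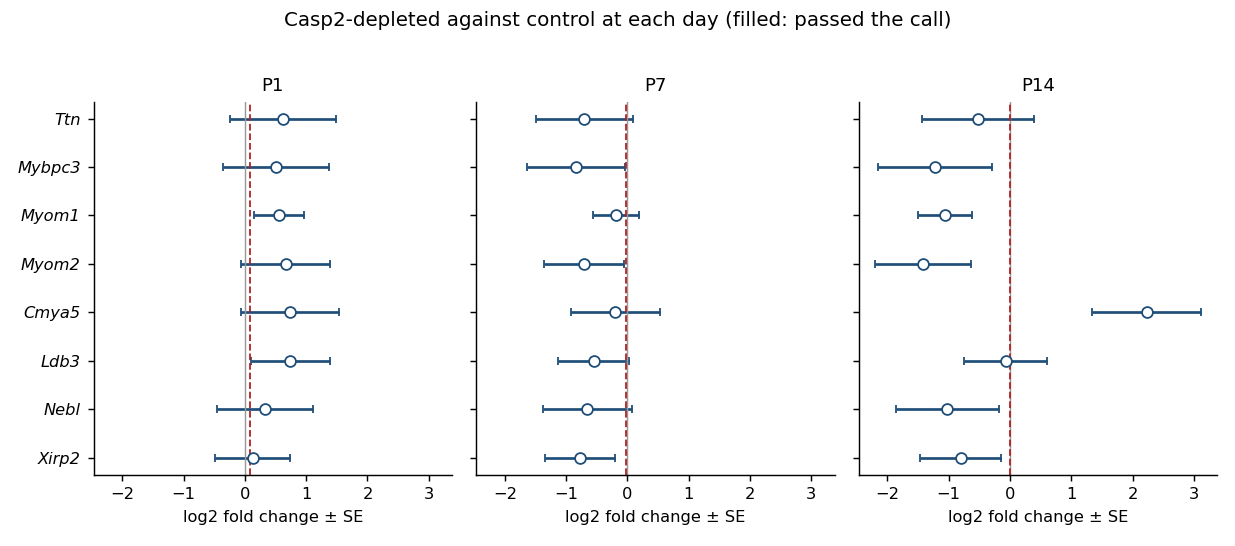
Log2 fold change of Casp2-depleted against control nuclei at each day for 8 of the 9 genes (Tcap, with 1 read in P14 Casp2-depleted nuclei, is left out), from edgeR's quasi-likelihood fit, with bars of 1 standard error; the dashed red line is the median over all genes tested. At P7 every estimate lies below 0, at -0.84 for Mybpc3 and -0.71 for Ttn, and no gene passed the test on any day.

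Whether the steps between days differed between the genotypes was tested with interaction terms. For the step from P1 to P7 the difference was fitted lower in Casp2-depleted nuclei for each of the 9 genes, with a median of -0.99 against -0.18 over all genes. It was -1.32 (standard error 1.17) for Ttn and -1.35 (1.19) for Mybpc3, both at an adjusted p of 0.9999. EdgeR called 0 of the 9 and 0.0% of all genes, and 0 of the 9 had an unadjusted p below 0.05, which 6.83% of all genes had. For the step from P7 to P14 edgeR called 0 of the 9, where 0.0245% of all genes were called, and 2 of the 9 had an unadjusted p below 0.05, as 9.76% of all genes did. DESeq2 called 0 of the 9 in both terms, with 66 of 20368 genes in the first and 246 in the second. Limma-voom called 0 of the 9 in both as well, with 4 and 6 of all genes. The smaller rise to P7 in Casp2-depleted nuclei was thus not shown to differ from that in controls at this number of pools.

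Other genes of the same structures were read from lists made by gene symbol. From P7 to P14, both genotypes together, 9 of 17 tested Z-disc genes were called lower and none higher, against 8.66% of all genes called lower, and their median log2 fold change was -2.78 against -0.87 over all genes. Among them Actn2, which crosslinks actin at the Z-disc, fell by 3.13. Several of the others had P14 groups at or near 0, so that the size of the fitted change depends on the fit and is not ranked. Csrp3, the muscle LIM protein, went in the group means from 83.6 to 19.8 CPM in controls and from 33.0 CPM to 0 reads in Casp2-depleted nuclei, at least 57.4-fold lower. Myoz2, which binds calcineurin at the Z-disc, went from 86.2 to 44.1 CPM in controls and from 65.4 CPM to 0 reads in Casp2-depleted nuclei, at least 105-fold lower. Des, which encodes the intermediate filament desmin, had 1 read in P14 controls and 92 in P14 Casp2-depleted nuclei, against 358 and 219 at P7. Synpo2l had 353 reads at P7 and 0 at P14 and was at least 81.5-fold lower. Of 9 M-band genes 4 were called lower, with a median of -1.87 against the same -0.87. Among them, Trim55, a ubiquitin ligase that binds titin, fell by 3.73 (standard error 0.39, adjusted p = 4.684e-18) and Smyd1, a chaperone-like methyltransferase for myosin, by 2.26. Trim54, called as well, went from 190 reads to 0 in controls and from 206 to 43 in Casp2-depleted nuclei.

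Of the genes whose products bind the elastic I-band part of titin, 1 of 3 tested was called lower, the stress-responsive Ankrd1 at -5.43 (standard error 0.80, adjusted p = 3.194e-04), where the list's median was -2.39. Among genes for filament length and the thick filament 3 of 6 were called lower, Lmod2 (-1.78), Tmod1 (-2.45) and Mybphl, which had 120 reads at P7 and 0 at P14 and was at least 27.7-fold lower, and the median was -1.43. From P1 to P7, Lmod2, a leiomodin that lengthens thin filaments, was the one gene of these lists called higher, at 1.65 (0.31, 0.0002494), where 0.0933% of all genes were called higher. From P1 to P14 edgeR called lower 5 Z-disc genes (Csrp3, Myoz2, Pdlim5, Nexn and Synpo2l), 3 M-band genes (Trim54 and Trim55 among them), Ankrd1 and Tmod1, that is 5 of 17, 3 of 9, 1 of 3 and 1 of 6 tested against 4.0% of all genes, and the list medians were -2.66, -1.30, -0.92 and 0.19 against -0.57. Between the genotypes Myoz2 was lower in P14 Casp2-depleted nuclei with 0 reads against 187 (adjusted p = 0.0299), but all 187 reads were in P14 control replicate 1 and the other 2 control libraries were at 0 as well. The no-gene share and the cardiomyocyte markers, of which Actn2 is also in the Z-disc list, moved with the day as described above, and their part in these counts was not tested.

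The genes most like each of the 9 across the 21 libraries were found by the mean absolute difference of log2 CPM after centring each gene, among 10512 genes with a mean of at least 20 reads. Nearest to Ttn was Myh6, the adult cardiac myosin heavy chain, at 0.37, followed by Luc7l at 0.40 and Sltm at 0.43. Among the 3 genes most like Mybpc3 were Ggnbp2 (0.44) and Tpm1, which encodes tropomyosin (0.45), and among those most like Nebl were Rsrc2 (0.50) and Nktr (0.56). Ldb3 was nearest to Nrap (0.41), which encodes a protein of the forming sarcomere and was called lower at P14 itself (-2.39), with Srl next (0.44). Myom1 was nearest to Ttc3 (0.35), Vegfa (0.35) and Fgf13 (0.36), Xirp2 to Pde4a (0.45), Cmya5 to Mpzl1 (0.60), Tcap to Renbp (0.62) and Myom2 to Acacb (0.67). The median difference over all genes compared was 1.51 to 2.34. The libraries share days, depth and the no-gene share, and the distances are a description.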

How the data were processed

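QuantSeq 3′ FWD libraries (low-input protocol, 100-base single-end reads) were made from RNA of PCM1-sorted heart nuclei in 24 samples. The deposited files hold raw counts per Ensembl gene; per the labels and methods of the authors, reads were trimmed with cutadapt 4.0, checked with FastQC 0.11.8, aligned with STAR 2.6.1e to GRCm39 and counted over the full gene, introns included, with HTSeq 2.0.3. Summary lines for reads on no gene were kept out of library sizes and made up 34.3 to 76.1% of uniquely aligned reads in the 21 libraries kept. Genes were named and placed with GENCODE vM39, which matched 56236 of 56923 identifiers.

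Genes with at least 10 reads in all and a read in at least 3 libraries (20368) were tested with edgeR 4.0.16 (TMM, quasi-likelihood F-test with robust=TRUE, means of 6 groups, 15 residual degrees of freedom), and Benjamini-Hochberg adjustment ran over all of them. Calls needed an adjusted p under 0.05 together with a log2 fold change beyond 1 in either direction. The robust setting was chosen after the data had been seen, and the fit without it is reported. Standard errors were derived from the fold change and its F statistic. Comparisons of both genotypes together average the genotypes. DESeq2 1.42.0 and limma-voom 3.58.1 were alternatives, and the code was tested on simulated data. Group membership came from the sample labels, and group levels are in CPM.

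The 9 genes were fixed by name. They, the lists of related genes and the markers were chosen with earlier results of these data known. Named beside the 9 genes are the 3 most alike genes of each, or some of them, and up to 5 called genes of each related list with the largest change; results for some genes are not reported here. The replicate number stands as a batch number in the deposited names. It was taken as a pairing only in the alternatives with a replicate block, and no main test used it. Deviations from group means correlated at -0.0819 to 0.2425 (median 0.0851) over 9 same-numbered pairs. Over 28 other pairs they correlated at -0.1979 to 0.1401 (median -0.0139). Replicate libraries differed by more than counting noise (chi-square per degree of freedom 17.8 to 75.3 over 27 pairs). Intervals and the floor of 3 reads cover counting error only, since reads without molecular identifiers are not independent molecules.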

Additional observations from a re-analysis of the deposited data

Results flagged for a closer look

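Among the 27 sets of 4 libraries checked for a library far from the others (chance gives such a library in about 1 in 20 sets), the highest P7 control library of Myom2, replicate 1 at 502 CPM, stood apart from 176, 219 and 225 CPM in the others. The 3 libraries left out for quality also held reads of the genes. In CPM of reads on genes without TMM scaling, Ttn was at 53860 in P14 control replicate 3 and Ldb3 at 2237 in P1 control replicate 1, and Tcap was at 289 and Cmya5 at 455 in P14 Casp2-depleted replicate 1, each above the highest of the 10 kept control libraries. These libraries had 2049, 11707 and 4285 detected genes, in the order P14 control replicate 3, P1 control replicate 1 and P14 Casp2-depleted replicate 1, against 7628 to 17770 in the kept libraries. They enter no comparison of the report except where all 24 libraries are named.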

How the results depend on the processing

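The count of the 9 genes called stayed within 1.5 times its main value in 170 of 194 alternatives other than leaving out a library. From P7 to P14 with both genotypes together, 6 in the main fit, it left that range with the no-gene share as a term (the part of uniquely aligned reads that fell on no gene), which gave 1. Over all genes 225 were then called, against 1817 in the main fit. The other counts that did so were as follows. In brackets is the number of all genes called, of 20368 tested unless another total is given. In the main fit that number was 382 from P7 to P14 in controls and 577 in Casp2-depleted nuclei. From P1 to P14 it was 396 in Casp2-depleted nuclei and 863 in both together. Without the robust setting, chosen after seeing the data, 2 genes were called from P1 to P7 in controls (10) and in both genotypes together (27). That fit called 5 from P7 to P14 in controls (394), and in Casp2-depleted nuclei 6 from P7 to P14 (613) and 4 from P1 to P14 (442). DESeq2 called 5 from P7 to P14 in controls (1031) and 1 between genotypes at P14 (662). Limma-voom called 0 from P7 to P14 in controls (1150) and in Casp2-depleted nuclei (830). From P1 to P14 it called 0 in Casp2-depleted nuclei (429) and 0 in both together (436). With all 24 libraries, 1 was called from P7 to P14 in controls (35 of 20583) and 0 from P1 to P14 in Casp2-depleted nuclei (61 of 20583). With the no-gene share as a term, 0 were called from P7 to P14 in controls (38) and 1 in Casp2-depleted nuclei (147). From P1 to P14 that fit called 0 in Casp2-depleted nuclei (95) and 0 in both together (235). With DESeq2 size factors 1 was called from P7 to P14 in Casp2-depleted nuclei (404), and with only the groups compared 6 (509 of 15361). The latter fit called 2 from P1 to P7 in both together (74 of 19625). From P1 to P14 in Casp2-depleted nuclei, filterByExpr (244 of 16811), no filter (318 of 26054) and the replicate block (278) each gave 1. The block changed no other call except that of Ldb3 from P7 to P14 in Casp2-depleted nuclei. The causes of these changes were not tested.

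Leaving out each library in turn gave 1 to 4 calls from P7 to P14 in controls (1 without P7 control replicate 2), 0 to 2 from P1 to P14 in controls (2 without P14 control replicate 1, 1 without its replicate 2 or P1 control replicate 2), 1 to 5 from P7 to P14 in Casp2-depleted nuclei, 1 to 4 from P1 to P14 there (4 without P1 Casp2-depleted replicate 2 or P14 control replicate 1; 1 without P1 Casp2-depleted replicate 1 or 4, P7 control replicate 2, P7 Casp2-depleted replicate 2 or any P14 Casp2-depleted library), 0 to 1 from P1 to P7 in both (1 without P1 Casp2-depleted replicate 4), 2 to 6 from P1 to P14 in both, and 0 to 1 between genotypes at P14 (Cmya5 without P14 control replicate 2). The number of all genes called moved as well. From P7 to P14 in controls it was 176 without P7 control replicate 2, against 382 in the main fit. From P1 to P7 in both it was 86 without P1 Casp2-depleted replicate 4, against 19. The step in the Myom2 to Myom1 ratio ran from -0.13 to 1.17 from P1 to P7 in controls (-0.13 without P1 control replicate 3), -0.60 to 1.87 from P7 to P14 in controls (-1.82 with all 24 libraries) and -0.47 to 0.91 from P1 to P7 in Casp2-depleted nuclei (-0.47 without P1 replicate 2 there).

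Single estimates that changed sign with the no-gene share as a term included Ldb3 from P1 to P7 in both (-0.19) and in controls (-0.29). Others were Ldb3 from P7 to P14 in Casp2-depleted nuclei (0.036), Cmya5 from P1 to P7 (-0.21) and Tcap from P7 to P14 (1.06). Ttn from P1 to P14 (0.65) and the Ttn interaction from P1 to P7 (0.19) changed sign as well. With all 24 libraries Tcap from P7 to P14 was 0.45 and Ttn from P1 to P14 was 0.27. With DESeq2 or its size factors Cmya5 from P1 to P7 was -0.046 and Xirp2 from P7 to P14 was 0.089. Leaving out a library took Cmya5 from P1 to P7 from -0.0763 to 0.26, Xirp2 from P7 to P14 from -0.65 to 0.034, Ttn from P1 to P14 from -1.02 to 0.071, and at P14 between genotypes Mybpc3 from -1.77 to 0.30 and Myom1 from -1.74 to 0.0595. Over all alternative fits further signs changed. Between genotypes at P1, Ttn reached -0.59, Ldb3 -0.54, Nebl -0.48, Myom1 -0.40, Mybpc3 -0.40, Myom2 -0.17 and Xirp2 -0.17. At P7 Myom1 reached 0.12 and Cmya5 0.069, and at P14 Nebl reached 0.73, Ldb3 0.66 and Ttn 0.32. In the interaction from P1 to P7, Tcap reached 3.84, Myom1 0.52, Ldb3 0.20 and Nebl 0.12. DESeq2 size factors moved the median of all genes from -0.87 to -0.60 from P7 to P14 and from 0.22 to 0.09 from P1 to P7. Tcap and the low libraries of Myom2, Nebl and Cmya5 rested on few reads, and the part of depth in these low values was not tested.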
